A study of Saccharomyces cerevisiae with 12 samples.

Results

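The genes of trehalose synthesis and breakdown in the yeast Saccharomyces cerevisiae were TPS1, TPS2, TPS3 and TSL1, which code for the trehalose synthase complex, and NTH1, NTH2 and ATH1, which code for trehalases. They were chosen by name, as the probe sets whose annotation gives that gene alone, and all 7 had 1 such probe set each. The array holds 9335 probe sets, of which 6504 carry 1 gene symbol and name 5656 genes in all. RNA was measured on 12 Affymetrix S98 arrays in 6 groups. Strain SH100 is the wild type (WT), and strain SH121 (MU) carries a temperature-sensitive allele of TOR2, a protein kinase of both TOR complexes. The paper calls the strains isogenic, and describes SH121 as defective only in the function that TOR2 does not share with TOR1. Each strain was grown in rich glucose medium at 25 °C (0 h) or after a shift to 37 °C for 2 h or 6 h, and each group had 2 independent duplicates, named A and B. No array is labelled as a culture kept at 25 °C for 2 h or 6 h. The effect of heat and that of time in the new culture conditions therefore cannot be told apart. The paper states that all cultures were harvested at a similar density to limit differences in growth phase. The mutant is a single strain, and both strains went through the same temperature shift.

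Trehalose is a sugar made of paired glucose units that yeast stores and that protects proteins and membranes in heat and other stress. It is made from glucose 6-phosphate and UDP-glucose through trehalose 6-phosphate, and trehalases split it back into glucose. In heat, synthesis and breakdown are known to run side by side, and the level of the sugar depends on the balance of both.

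The values are array signals on a linear scale, which allow a probe set to be compared between arrays but not with another probe set. The array medians lay between 72 and 75.8, and duplicate arrays of a group correlated with r from 0.970 to 0.978 on the log2 scale over all probe sets. TOR2, whose allele marks the mutant strain, had signals of 260.3 and 236 in WT and 178 and 191 in MU at 0 h, and no difference between the strains passed (adjusted p = 1, limma). It rose by 0.63 on the log2 scale in MU at 6 h (adjusted p = 0.0426, limma). The allele changes the protein, so the RNA level does not check the strain label. Of the markers of other states of the cells, those of haploid a cells summed to between 3137 and 6131 on each array (4 of 4 genes measured), those of haploid alpha cells to between 65.6 and 117 (3 of 3) and those of sporulation to between 35.7 and 63.1 (5 of 5). The a cell sum was 5442 to 6131 at 0 h and 3137 to 4957 on the heated arrays, and the alpha cell sum 65.6 to 87.6 and 88.3 to 117. Of the 3 alpha cell genes STE3 alone passed as higher in the 4 comparisons with 0 h, and MFALPHA1 and MFALPHA2 did not pass. Of the 4 a cell genes, 3 (WT 2 h), 2 (WT 6 h), 3 (MU 2 h) and 3 (MU 6 h) passed as lower. Of the 5 sporulation genes 1 passed as lower each time. In the same order 3.28%, 9.55%, 3.11% and 11.4% of all probe sets passed as lower, and 5.38%, 9.83%, 4.88% and 10.8% as higher. The part of these shifts in the results was not tested. The RNA came from whole cultures, in which a change in every cell and a change in a share of the cells cannot be told apart.

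After the shift to 37 °C all 7 genes rose, in both strains and at both times. TSL1 rose most, to 6.01 times its 0 h level after 2 h and 7.50 times after 6 h for WT, and to 6.40 and 9.39 times for MU. TPS3 rose least, to 1.46 times in WT and 1.55 times in MU at 6 h. The genes of breakdown rose along with those of synthesis: at 6 h the 3 trehalase genes stood at 3.68 to 4.22 times their 0 h level in WT and at 3.16 to 4.01 times in MU.

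These changes were tested with limma over 9275 probe sets, and a gene was counted as changed at an adjusted p under 0.05 by the method of Benjamini and Hochberg, taken over all probe sets. At 2 h, 7 of 7 genes passed as higher in WT, where 5.38% of all probe sets did, and 7 of 7 in MU, where 4.88% did. At 6 h the counts were 7 of 7 in WT against 9.83% of all probe sets and 7 of 7 in MU against 10.8%. The median log2 change of the genes was 1.46 at 2 h and 1.88 at 6 h for WT, against 1.35 and 1.97 for MU, while the medians of all probe sets lay between -0.06 and -0.02. In all 4 comparisons both heated arrays lay above both 0 h arrays for 7 of 7 genes, which was the case for 29.9% (WT 2 h), 29.6% (WT 6 h), 25.8% (MU 2 h) and 26.7% (MU 6 h) of all probe sets. RDAM, the rank difference method described in the study's paper and written anew here, selected 6 (WT 2 h), 7 (WT 6 h), 7 (MU 2 h) and 7 (MU 6 h) of the genes as increased at a false discovery rate (FDR) of 10%, beside 10.2%, 12.5%, 10.2% and 11.2% of all probe sets. The gene it left out at 2 h in WT was TPS3. In these comparisons RDAM as written anew selected 955, 1170, 955 and 1049 probe sets as increased. Each count is larger than the one the paper reports at the same FDR, so this run was less strict here.

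The 2 h calls depended on the arrays in the fit more than the 6 h calls. With only the 4 arrays of a comparison fitted, 0 of 7 genes passed at 2 h in WT (limma; adjusted p from 0.0594 to 0.110) and 4 of 7 in MU, while at 6 h 7 passed in WT and 6 in MU, where NTH2 did not (adjusted p = 0.099, limma). Without WT 0 h B, 4 of 7 genes passed at 2 h in WT, and in MU 4 passed without MU 0 h A and 3 without MU 2 h A. TSL1, NTH1 and ATH1 passed at 2 h in both strains with any 1 array left out. In WT at 2 h, TPS3 and NTH2 did not pass without any 1 of the 4 arrays compared, and TPS1 did not without WT 0 h B. In MU at 2 h, NTH2 was lost without MU 0 h B, MU 2 h A or MU 2 h B, TPS1 without MU 0 h A, MU 0 h B or MU 2 h A, and TPS2 and TPS3 without MU 0 h A or MU 2 h A.

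**Figure D1:**
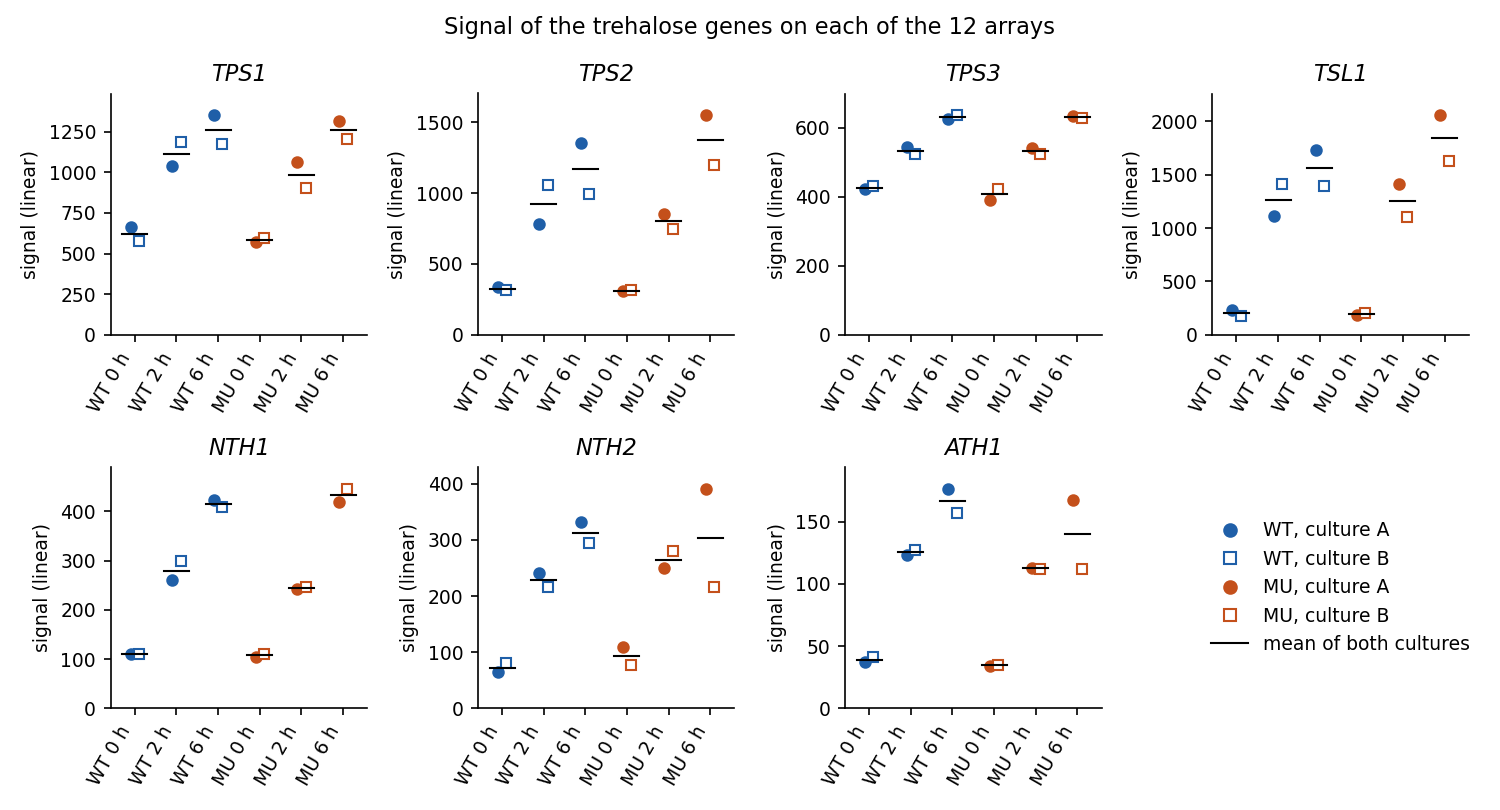
Signal of each trehalose gene on each of the 12 arrays (linear axis from 0, arbitrary units, a scale of its own for each gene), with WT in blue and MU in orange, culture A as filled circles, culture B as open squares and the mean as a line. In every panel both arrays at 2 h and at 6 h lie above both arrays at 0 h of the same strain.

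**Figure D2:**
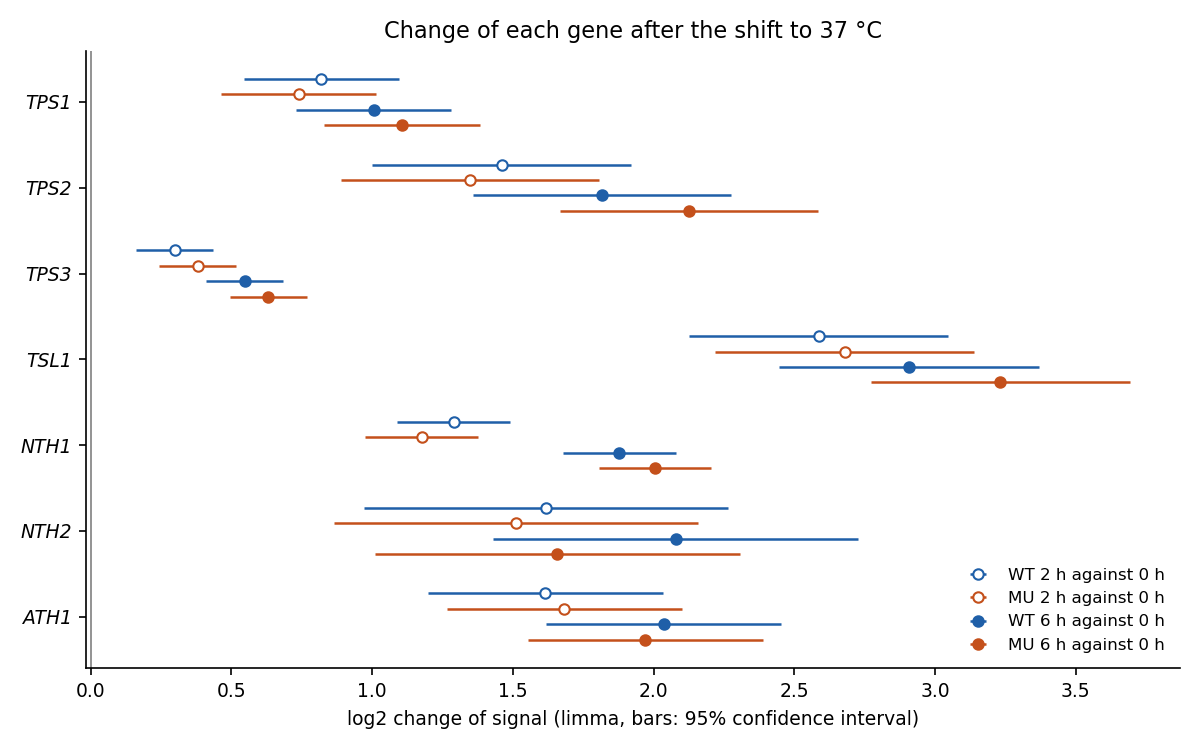
Log2 change of each gene against 0 h of the same strain from limma (points) with the 95% confidence interval (bars), for WT (blue) and MU (orange) at 2 h (open) and 6 h (filled). TSL1 lies furthest to the right, with 2.59 to 3.23, and TPS3 closest to 0, with 0.30 to 0.63.

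TPS1 codes for trehalose 6-phosphate synthase, which makes the phosphorylated sugar and whose product also restrains the entry of glucose into glycolysis. Its signal (A and B) was 661 and 574 at 0 h, 1037 and 1184 at 2 h and 1350.1 and 1174 at 6 h in WT. In MU it was 569.6 and 598 at 0 h, 1062 and 901 at 2 h and 1318 and 1204 at 6 h. The 0 h arrays of both strains reached 661 at most and the heated arrays of both 901 at least, with no overlap. The log2 change was 0.82 at 2 h and 1.0 at 6 h for WT, against 0.74 and 1.11 for MU (SE 0.12 each), with adjusted p-values from 0.000905 to 0.0108 (limma).

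TPS2 codes for the phosphatase that frees trehalose from its phosphate. In WT the signals were 334 and 314 at 0 h, 784 and 1054 at 2 h and 1350.5 and 990.5 at 6 h. In MU they were 311 and 313 at 0 h, 855 and 747 at 2 h and 1547 and 1196 at 6 h. The 4 arrays at 0 h lay close together, and the duplicates at 6 h lay further apart, with array A above array B in both strains. The change came to 1.46 at 2 h and 1.82 at 6 h for WT, against 1.35 and 2.12 for MU (SE 0.20 each) on the log2 scale, with adjusted p-values from 0.000491 to 0.00762 (limma).

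TSL1 and TPS3 code for a pair of related large subunits that regulate the complex. TSL1 gave signals of 231 and 178 at 0 h, 1111 and 1409.6 at 2 h and 1735 and 1392 at 6 h in WT and of 187 and 201 at 0 h, 1410.1 and 1105 at 2 h and 2055 and 1624 at 6 h in MU. Its lowest heated array, at 1105, lay far above its highest array at 0 h, at 231. The log2 change was 2.59 at 2 h and 2.91 at 6 h for WT, against 2.68 and 3.23 for MU (SE 0.20 each), with adjusted p-values from 8.03e-05 to 0.000551 (limma), and only 60 to 67 (WT) and 34 to 50 (MU) of the 9275 probe sets had a larger change.

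TPS3 moved in a narrow range. Its signals were 422 and 431 at 0 h, 544 and 524 at 2 h and 626 and 636 at 6 h in WT and 390.4 and 424 at 0 h, 540.3 and 523 at 2 h and 634 and 629.5 at 6 h in MU. Duplicates were close in every group, and the 3 times did not overlap in either strain. The log2 change was 0.30 at 2 h and 0.55 at 6 h for WT, against 0.38 and 0.63 for MU (SE 0.06 each), and adjusted p-values ran from 0.000493 to 0.0228 (limma). With the dimmest 25% of probe sets left out, without the variance trend, on ranks or with RDAM, TPS3 no longer passed at 2 h in WT.

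The log2 ratio of TSL1 over TPS3 set the subunits against each other within each array. It lay between -1.26 and -0.86 on the 4 arrays at 0 h, between 1.04 and 1.42 on the 4 arrays at 2 h and between 1.13 and 1.69 at 6 h. The mean ratio rose by 2.29 at 2 h and by 2.48 at 6 h, with 4 of 4 heated arrays above 4 of 4 arrays at 0 h each time. The exact permutation test over arrays, two-sided and with both strains joined, gave p = 0.0286 for each time, the smallest it can give, and 0.0571 after adjustment over the 4 ratios tested, which misses 0.05. Since the ratio joins different probe sets, its change has a meaning and its sign has none. This test was chosen with the values in view.

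The trehalases differ in place and in control. NTH1 codes for the main neutral trehalase of the cytosol, which protein kinase A and 14-3-3 proteins activate. Its signals were 110.1 and 111 at 0 h, 260.0 and 299.5 at 2 h and 422 and 409 at 6 h in WT. In MU they were 104 and 111 at 0 h, 241 and 245 at 2 h and 419 and 446 at 6 h. Duplicates were close, and in both strains the arrays at 0 h, 2 h and 6 h formed 3 separate steps. The log2 change was 1.29 at 2 h and 1.88 at 6 h for WT, against 1.18 and 2.01 for MU (SE 0.09 each), with adjusted p-values from 2.07e-05 to 0.000463 (limma).

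NTH2 is the paralog of NTH1 and codes for a second neutral trehalase. It gave signals of 64.5 and 80.1 at 0 h, 241 and 216 at 2 h and 332 and 294 at 6 h in WT. In MU the signals were 109.7 and 77.1 at 0 h, 249 and 279.7 at 2 h and 391 and 216 at 6 h. The MU cultures at 6 h stood apart, with B below both MU arrays at 2 h. The log2 change was 1.62 at 2 h and 2.08 at 6 h for WT, against 1.51 and 1.66 for MU (SE 0.28 each), the widest error of the 7 genes, with adjusted p-values from 0.00261 to 0.0188 (limma). At 6 h in MU it was 2.08 without array B and 1.23 without array A.

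ATH1 codes for the acid trehalase, which acts at the cell surface and in the vacuole and lets yeast grow on trehalose from outside. Its signals were 37.1 and 41.1 at 0 h, 123 and 128 at 2 h and 176 and 157 at 6 h in WT and 34.3 and 35.0 at 0 h, 112 and 112 at 2 h and 168 and 112 at 6 h in MU. In WT the 3 times formed separate steps, and in MU array B at 6 h fell level with the arrays at 2 h. The log2 change was 1.62 at 2 h and 2.04 at 6 h for WT, against 1.68 and 1.97 for MU (SE 0.18 each), with adjusted p-values from 0.000448 to 0.00238 (limma). Without MU 6 h B the change at 6 h in MU was 2.26, and without MU 6 h A it was 1.68.

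The neutral trehalase paralogs rose together. The log2 ratio of NTH2 over NTH1 lay between -0.76 and 0.08 at 0 h, between -0.47 and 0.18 at 2 h and between -1.04 and -0.10 at 6 h, so the times overlapped. Its mean changed by 0.33 at 2 h (p = 0.229, adjusted 0.305) and by -0.07 at 6 h (p = 0.771 before and after adjustment), both by the exact permutation test over arrays.

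**Figure D3:**
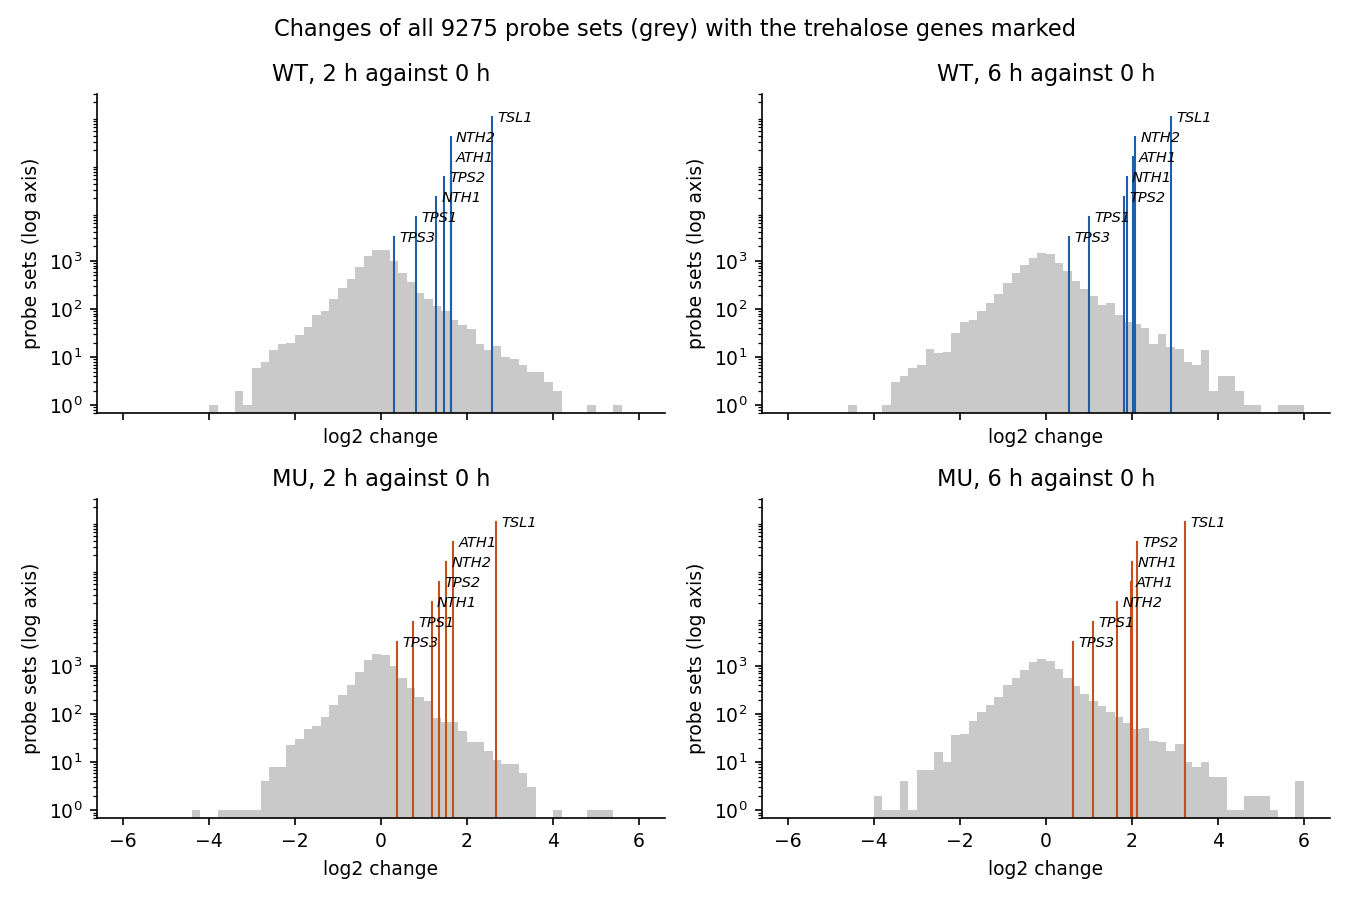
Number of probe sets (log axis) by log2 change against 0 h in steps of 0.2, for all 9275 probe sets (grey, values past 6 placed in the last bar), with each trehalose gene as a line at its own change; the height of a line has no meaning. All 7 lines lie to the right of 0 in the 4 panels, TPS3 within the bulk and TSL1 in the thin upper end.

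On the log2 scale, though not for every gene on the linear scale, most of the rise was reached at 2 h. The change at 2 h, as a share of that at 6 h on the log2 scale, ran from 54.5% (TPS3) to 89.0% (TSL1) in WT and from 58.6% (NTH1) to 91.2% (NTH2) in MU. From 2 h to 6 h, 0 of 7 genes passed in WT (limma; 0.0539% of all probe sets passed as higher), with 3 at an unadjusted p under 0.05 and 0 by RDAM (0.375% of all probe sets). In MU NTH1 alone passed, 1 of 7 (0.291% of all probe sets), with 5 at an unadjusted p under 0.05 and 1 by RDAM (1.74%). All 7 changes were above 0 in each strain, with a median of 0.36 in WT and 0.37 in MU on the log2 scale. Both 6 h arrays lay above both 2 h arrays for 4 of 7 genes in WT, where 17% of all probe sets did so, and for 5 of 7 in MU, where 21.8% did. TPS3 and NTH1 were in both of these sets.

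NTH1 rose further after 2 h in MU and in the mean of both strains. Its log2 change from 2 h to 6 h was 0.59 in WT (SE 0.09, adjusted p = 0.0672, limma) and 0.83 in MU (SE 0.09, adjusted p = 0.0128, limma). The MU call was lost without MU 2 h A (adjusted p = 0.0726, limma) and without MU 2 h B (0.0518), and with only the 4 arrays compared. In the mean of both strains, a contrast added after the values had been seen, 2 of 7 genes passed, where 1.76% of all probe sets passed as higher, and 6 had an unadjusted p under 0.05. They were NTH1 (0.71, SE 0.06, adjusted p = 0.00322, limma) and TPS3 (0.25, SE 0.04, adjusted p = 0.0278, limma). Without any 1 of WT 0 h A, WT 0 h B, WT 2 h A, WT 6 h A, WT 6 h B, MU 2 h A and MU 2 h B, NTH1 passed and TPS3 did not. Without MU 6 h B, NTH1 and ATH1 passed and TPS3 did not.

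The strains were compared to ask whether the TOR2 allele changed the trehalose genes. No difference between MU and WT passed. At 0 h 0 of 7 genes differed (limma; 0.0323% of all probe sets), at 2 h 0 of 7 (0%) and at 6 h 0 of 7 (0%), and 0 had an unadjusted p under 0.05 at any of the times. RDAM selected 0 of 7 at each time, beside 0%, 0.0214% and 0.0643% of all probe sets. At each time RDAM as written anew here selected fewer probe sets between the strains than the paper reports at the same FDR. Its result is therefore not that of the paper's own run. The arrays of the strains did not overlap for 2 of 7 genes at 0 h (TPS2 and ATH1), 3 of 7 at 2 h (NTH1, NTH2 and ATH1) and 0 of 7 at 6 h, against 34.6%, 32.3% and 32.6% of all probe sets.

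The differences, MU minus WT, lay between -0.21 and 0.33 at 0 h, between -0.18 and 0.22 at 2 h and between -0.28 and 0.24 at 6 h on the log2 scale. The 95% confidence intervals of these differences were narrowest for TPS3 (-0.21 to 0.06 at 0 h and -0.13 to 0.15 at 6 h) and widest for NTH2 (-0.32 to 0.97 at 0 h and -0.74 to 0.55 at 6 h). For TSL1 the interval was -0.46 to 0.46 at 2 h and -0.22 to 0.70 at 6 h.

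ATH1 had a difference below 0 at each of the 3 times, of -0.21, -0.14 and -0.28 on the log2 scale, with adjusted p-values from 0.693 to 1 (limma). The 6 h difference rested on 1 array, with 0.02 without MU 6 h B and -0.57 without MU 6 h A. Averaged over the 3 times, a contrast added after the values had been seen, 0 of 7 genes differed (limma; 0% of all probe sets) and 0 had an unadjusted p under 0.05. That mean for ATH1 was -0.21 (95% interval -0.45 to 0.03, adjusted p = 0.623, limma), and for the other genes it lay between -0.09 (TPS1) and 0.15 (NTH2).

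The rise itself was also compared between the strains. The change in MU minus the change in WT passed for 0 of 7 genes at 2 h (0% of all probe sets) and 0 of 7 at 6 h (0%) in limma, with 0 at an unadjusted p under 0.05. At 2 h these differences ran from -0.11 to 0.09 on the log2 scale and at 6 h from -0.42 (NTH2) to 0.33 (TSL1). The interval for TSL1 at 6 h was -0.33 to 0.98 and for NTH2 -1.34 to 0.50 on the log2 scale. The NTH2 value was 0.005 without MU 6 h B and -0.84 without MU 6 h A, and that of TSL1 ran from 0.15 to 0.50 with 1 array left out.

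**Figure D4:**
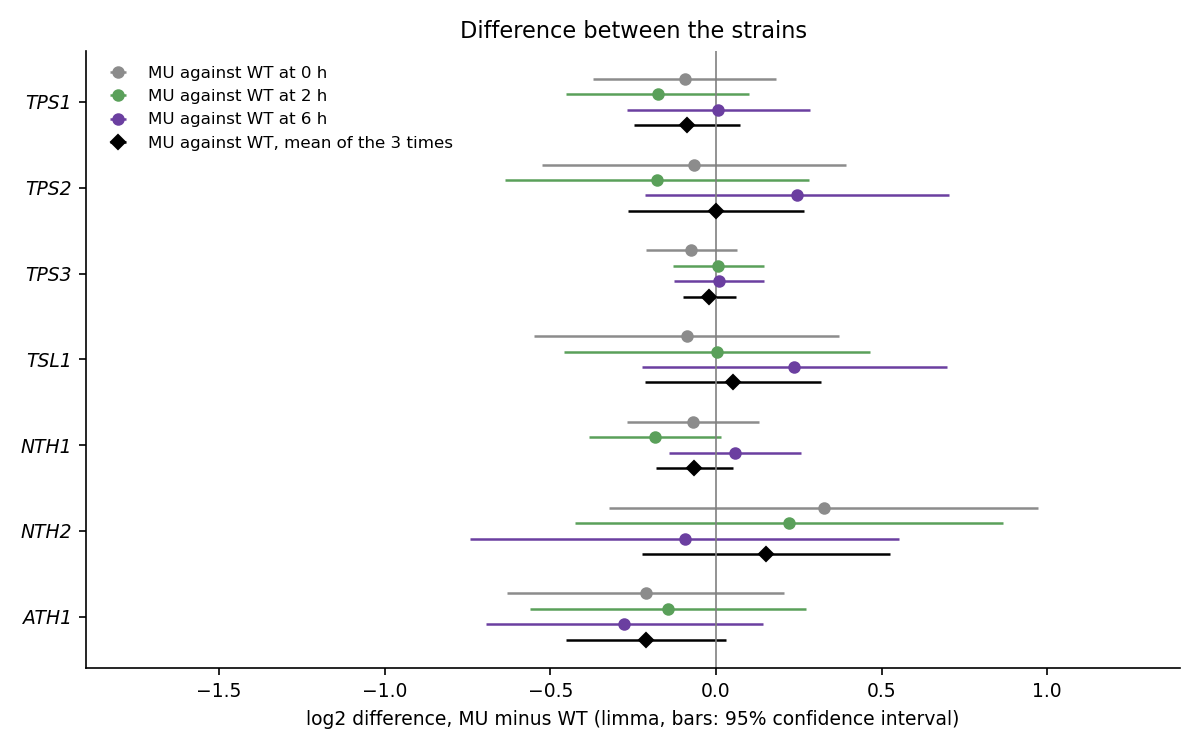
Log2 difference of each gene, MU minus WT, from limma (points) with the 95% confidence interval (bars) at 0 h (grey), 2 h (green) and 6 h (purple) and as the mean of the 3 times (black diamonds). Every interval crosses 0, and NTH2 has the widest intervals at each time.

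The genes that supply the synthase with its substrates changed by isoenzyme. Of the 8 measured, 5 passed as higher and 1 as lower at each time in WT, and 5 as higher at both times in MU, with 0 lower at 2 h and 2 lower at 6 h. Beside them, the shares of all probe sets that passed as higher were those given above for the trehalose genes, and 3.28% (WT 2 h), 9.55% (WT 6 h), 3.11% (MU 2 h) and 11.4% (MU 6 h) passed as lower. The same 5 rose each time: the hexokinase HXK1, the glucokinase GLK1, the phosphoglucomutase PGM2, the UDP-glucose pyrophosphorylase UGP1 and PGM3, which RefSeq names PRM15, a phosphoribomutase. PGM2 rose most, from 101 and 105 to 971 and 920.2 in WT and from 134 and 123 to 1058 and 691 in MU, by 3.15 and 2.73 on the log2 scale (adjusted p = 0.000189 and 0.000285, limma). UGP1, which makes the UDP-glucose used by TPS1, rose by 1.08 in WT and 0.83 in MU (adjusted p = 0.000945 and 0.00259, limma).

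PGM1 and HXK2, isoenzymes of genes that rose, had changes below 0. PGM1, the second phosphoglucomutase, fell by 0.62 in WT and 0.39 in MU at 6 h on the log2 scale (adjusted p = 0.00841 and 0.0412, limma). HXK2, the main hexokinase of growth on glucose, fell by 0.57 in WT at 2 h (adjusted p = 0.0472, limma) and by 0.49 in MU at 6 h (adjusted p = 0.0423, limma), and did not pass in WT at 6 h (-0.46, adjusted p = 0.0564, limma) or in MU at 2 h (-0.52, adjusted p = 0.066, limma). With each of the 12 arrays left out in turn, PGM1 passed as lower in WT at 6 h 11 times (not without WT 0 h A) and in MU 3 times (without WT 6 h A, WT 6 h B or MU 6 h B). HXK2 passed 4 times in WT at 2 h (without MU 2 h A, MU 2 h B, MU 6 h A or MU 6 h B) and 3 times in MU at 6 h (without MU 2 h A, MU 2 h B or MU 6 h B). PGI1, which converts glucose 6-phosphate to fructose 6-phosphate, had changes of -0.08 and -0.02 in WT and did not pass in either strain.

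Of the partners and kinases of the neutral trehalase, 6 are reported. At 2 h 3 passed as higher in WT and 4 in MU, beside 5.38% and 4.88% of all probe sets. At 6 h 4 passed as higher in each strain, beside 9.83% (WT) and 10.8% (MU). In WT at 6 h 1 passed as lower, where 9.55% of all probe sets did. DCS2, paralog of the scavenger decapping gene DCS1, rose from 21.7 and 18.6 to 257 and 246 in WT and reached 290.5 and 287 in MU, a rise by 3.56 (WT) and 3.50 (MU) on the log2 scale (adjusted p = 9.53e-05 and 9.47e-05, limma). DCS1 rose by 0.93 in WT and 0.96 in MU at 6 h. TPK2 and TPK3 code for catalytic subunits of protein kinase A. At 6 h TPK2 rose by 0.98 in WT and 1.0 in MU (adjusted p = 0.00548 and 0.00441, limma), and TPK3 fell by 0.72 in WT (adjusted p = 0.0467, limma), with -0.67 in MU that did not pass. The TPK3 call held with MU 2 h A or MU 2 h B left out and was lost without any 1 of the other arrays. Of the 14-3-3 genes, BMH1 rose by 0.54 in WT and 0.42 in MU at 6 h, and BMH2 had changes of -0.14 and -0.03 that did not pass.

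The transporters of trehalose, of which 2 of 3 were measured (MAL11 and MPH2, with no probe set matched for MPH3), had 0 of 2 past the threshold in the 4 comparisons with 0 h (limma). Of the 7 regulators that act on stress genes, 0 passed at 2 h in either strain, 2 at 6 h in WT and 1 at 6 h in MU, where 9.83% and 10.8% of all probe sets passed as higher. The kinase gene YAK1 rose by 1.12 in WT and 1.33 in MU at 6 h (adjusted p = 0.0387 and 0.0183, limma). MSN4, for a transcription factor of the general stress response, rose by 0.87 in WT at 6 h (adjusted p = 0.0204, limma). Its paralog MSN2 had changes between -0.25 and 0.10, and the heat shock factor gene HSF1 between -0.13 and 0.07, and neither passed. YAK1 in MU and MSN4 in WT did not pass without any 1 of the 4 arrays compared, and YAK1 in WT passed with WT 0 h A or WT 6 h B left out and with no other array left out. None of the 23 genes on these lists differed between the strains at any time in limma. These list counts depended on the arrays in the fit: with only the arrays compared, 0 substrate genes and 0 partners passed as higher at 2 h in each strain, and at 6 h 4 and 2 did in WT and 2 and 2 in MU. The regulators then had 1 higher at 6 h in each strain, and the genes passed as lower were 1 (PGM1) in WT at 6 h and 0 in the other 3 comparisons.

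**Figure D5:**
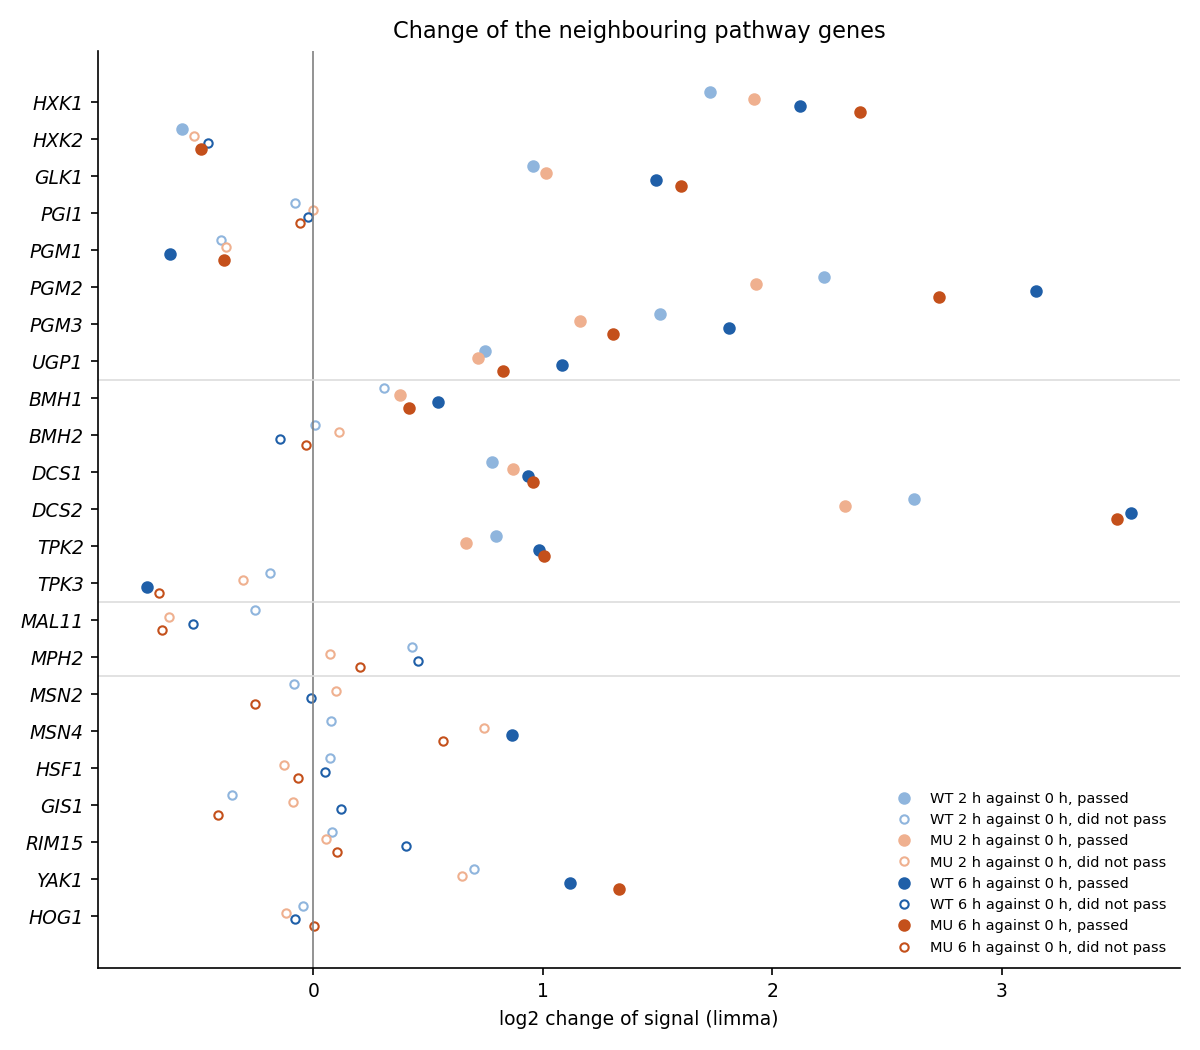
Log2 change against 0 h from limma for the genes of substrate supply, partners of the neutral trehalase, transport and regulation (groups from top to bottom, divided by lines), at 2 h (pale) and 6 h (dark) in WT (blue) and MU (orange); filled points passed an adjusted p under 0.05 and open points did not. PGM2 and DCS2 lie furthest to the right, and HXK2, PGM1 and TPK3 hold the filled points to the left of 0.

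Over the 12 arrays the trehalose genes followed each other closely, with Pearson r of log2 signals between 0.89 (TPS3 with NTH2) and 0.99 (TPS1 with TPS2). Such r rest on 12 arrays that share the step from 0 h to the heated groups, and are given as a description. Among 3185 probe sets with 1 gene symbol and a mean signal above 100, TPS1 was the nearest profile to TPS2 (r = 0.989) and NTH1 was among the 3 nearest to TPS3 (r = 0.983). TSL1 was nearest to DDR2, a gene induced by many stresses (r = 0.996). NTH1 was nearest to TDH1, for an isoform of glyceraldehyde 3-phosphate dehydrogenase (r = 0.994), and to the cell wall gene SPI1 (r = 0.992). ATH1 was nearest to GPH1, for glycogen phosphorylase (r = 0.988), and to SSE2, for a chaperone (r = 0.988). TPS1 was nearest to PST2 (r = 0.993), TPS3 to YPL247C (r = 0.996) and NTH2 to GCV1, for a subunit of glycine decarboxylase (r = 0.968).

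Within groups, culture A gave the higher signal for 3 of 7 genes at 0 h, 2 of 7 at 2 h and 6 of 7 at 6 h in WT, and for 1 of 7, 5 of 7 and 6 of 7 in MU. The median difference between duplicates of the trehalose genes in MU at 6 h was 0.34 on the log2 scale, beside 0.26 over all probe sets. In the other 5 groups it was 0.09 to 0.19, below the 0.17 to 0.24 over all probe sets in each. The gene values come from the deposited signals and those of all probe sets from quantile-normalized signals, so they are not strictly alike. The summed signal of genes that glucose represses (8 of 8 genes measured) was 264 to 291 at 0 h, 331 to 335 at 2 h and 293 to 396 at 6 h in WT, and 269 to 303, 324 to 351 and 438 to 658 in MU. At 2 h PCK1 and CAT8, 2 of the 8, passed as higher in each strain, beside 5.38% (WT) and 4.88% (MU) of all probe sets. At 6 h 2 of these 8 passed as higher in WT (PCK1 and CAT8) and 3 in MU (PCK1, CAT8 and JEN1), and the other 5 did not in either strain. Of all probe sets 9.83% (WT) and 10.8% (MU) did so. The called genes were dim at 0 h, with array medians of 72 to 75.8. CAT8 then gave 3.6 to 5.9, JEN1 1.7 to 4.0 and PCK1 21.7 to 33.1. The part of the genes that glucose represses in the rise of the trehalose genes was not tested.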

How the data were processed

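Biotin-labelled cRNA made from the RNA was hybridised to Affymetrix S98 arrays. The authors read the scanned images with MAS 5.0 and worked on its output in Matlab; which of these steps gave the deposited signal intensities is not stated. The step that put all 12 arrays on nearly the same distribution of intensities, and the probe annotation's genome build, are not given in the sources used here; such a common scale removes any overall rise or fall of RNA. The lowest value is 1, reached by 4.33% to 6.38% of probe sets on an array, and the number of arrays limits the precision. Groups came from the sample labels.

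Intensities were taken to log2 and quantile-normalized, and limma (3.58.1, R 4.3.3) was fitted to all 12 arrays in 6 groups with a variance trend (6 residual degrees of freedom), without 60 control probe sets. Comparisons with 0 h of a strain share its 0 h arrays. RDAM was rebuilt as an alternative on all 9335 probe sets (windows of 100 moved by 30, smoothing share of 0.3). Python 3.11.15, numpy 2.4.6 and scipy 1.17.1 ran the other steps. On simulated arrays of 9275 probe sets (WT 6 h against 0 h), limma recovered 82 of 100 changes of 1 log2 unit and 100 of 100 changes of 2 units, and called 8 unchanged probe sets. On simulated data RDAM recovered 200 of 200 changes of 2 log2 units with 41 false calls. These were 17.0% of the probe sets selected and so above its FDR of 10%. In both simulations the changed probe sets were drawn from those above the median signal, so the recovery does not describe dimmer genes. The simulated spread followed the mean signal alone. The recovery therefore does not describe data in which probe sets of like signal differ in spread. The paper's SAM test was not run.

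The text names all 7 members, genes of the pathway lists past the threshold or set beside such a gene, TOR2 and the nearest profiles; 1 item of the pathway lists is not reported here. Each gene is shown by its plain probe set with the highest mean signal, except MFA1 and MPH2, which have no plain probe set. YAK1, SUC2 and MFA1 have other probe sets. The members and lists were chosen with earlier results of these data known. The letters A and B were not treated as pairs in the main fit. Differences between duplicates correlated between groups with r from -0.363 to 0.240. These values do not settle whether samples of different groups were handled together. Alternatives were the deposited signals, median scaling, an offset of 16, a threshold of 0.10, RDAM, leaving out the dimmest 25% or each array, and fits without the trend, on ranks, with the replicate block and on the compared groups alone.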

Additional observations from a re-analysis of the deposited data

How the results depend on the processing

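No called change of a trehalose gene turned its direction under any alternative. The 7 of 7 genes higher at 6 h against 0 h were 7 under every alternative in WT and 6 or 7 in MU. At 2 h against 0 h, fitting only the arrays compared gave 0 of 7 in WT and 4 of 7 in MU, and leaving out an array gave 4 to 7 in WT and 3 to 7 in MU. From 2 h to 6 h, an adjusted p under 0.10 gave 1 gene in WT and 2 in MU. Of the 1 gene reported in MU, leaving out the dimmest 25% gave 2, only the arrays compared 0 and leaving out an array 0 to 1. For the mean of both strains from 2 h to 6 h, which was added after the values were seen, 2 genes became 1 without the variance trend, 1 on ranks, 1 with only the arrays compared and 1 to 2 with an array left out. NTH1 passed in that mean under every log2 setting (adjusted p from 0.00184 to 0.0359, limma), and TPS3 was lost with the dimmest 25% left out (adjusted p = 0.0577, limma), where another gene took its place in the count. Strain comparisons stayed at 0 genes under every alternative.

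Fits with the replicate block gave 7, 7, 7 and 7 genes in the 4 comparisons with 0 h, 0 (WT) and 1 (MU) from 2 h to 6 h and 0 between strains, as without it. The differences between duplicates of WT 2 h and of MU 2 h correlated with r = -0.363. A crossed replicate block, fitted to only the 4 arrays compared, gave 0 genes at 0 h and 0 at 2 h between strains. The uncrossed block on those arrays gave the same. Since 0 genes passed without a block and so few arrays were fitted, these fits cannot show whether such a pairing matters. The causes of the changed counts were not tested, except that fitting only the arrays compared leaves fewer arrays to estimate the spread. The median log2 change of all probe sets was at most 0.06 in size with quantile normalization, 0.05 with the deposited signals and 0.06 with median scaling. Each trehalose gene has a single probe set, so no other could be tried. With 2 arrays a group, the intervals of the strain differences are wide.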
